A study of Mus musculus with 20 samples.

Results

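Neurons of the left and the right habenula at embryonic day 18 were compared in 554 single-cell wells that held the habenula transcription factor Pou4f1. The wells came from 2 plates of left habenula and 2 plates of right habenula, of 20 plates and 7676 wells in the whole series. A well counted as a cell when it held 500 or more genes and 1000 or more counts, spike-ins and mitochondrial transcripts aside, with mitochondrial transcripts making up no more than 20%. It was taken as a habenula neuron when it held at least 1 count of Pou4f1 and fewer than 100 counts of the globins Hbb-bs, Hba-a1 and Hba-a2 together. These 4 genes chose the wells, so their levels are given as a description and were not tested. Wells chosen in this way are called neurons here, although 31 and 8 on the left plates and 37 and 16 on the right plates also held at least 3 counts of Sox2, Hes5, Mki67, Cldn5 or Ttr, markers of other or dividing cells.

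The study profiled the developing mouse habenula with Cel-seq2, a plate-based method that tags each transcript with a unique molecular identifier. In the series, 15 plates come from Brn3a-tauLacZ mice of several ages (Brn3a is an older name of Pou4f1) and 5 from C57BL/6 mice at E18. The left plates, the right plates and 1 plate of both sides share this strain and, by their stage labels, this age, although the title of the third kind reads E1. The labels name no treatment and no other allele for them. The labels do not say whether the 2 plates of a side come from separate animals or from a pool, so p-values measure the spread between plates, which may be technical.

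The habenula is a paired relay in the epithalamus that passes forebrain signals to the midbrain. Its medial division projects to the interpeduncular nucleus and makes acetylcholine and substance P, and its lateral division acts on monoamine neurons. In zebrafish the left and right habenulae differ in size and gene expression under the control of Nodal signalling, whereas the mouse habenulae look alike in gross anatomy. The comparison asks which genes, if any, differ between the sides in the mouse before birth.

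The 554 neurons were spread unevenly over the plates. Left plate 1 gave 202, left plate 2 gave 38, right plate 1 gave 218 and right plate 2 gave 96. All plates carry the same 384 well positions, and the share of positions kept as cells was 73.7% and 14.1% on the left plates and 72.7% and 34.6% on the right plates. The neurons held 4517335 and 1492285 counts in the left plates and 4378321 and 2763219 in the right plates, with a median per neuron of 22059 and 41750 in the left and 17908 and 27828 in the right. The second plate of each side therefore had fewer and deeper neurons, and left plate 2 limits the precision of every left value. Left plate 2 also stood apart in the share of its counts that were unspliced, 30.7% against 23.1% to 23.8% on the other 3, and in the nuclear RNA Malat1, at 2495 CPM against 1121 to 1363 CPM. The part of this in the side differences was not tested.

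Pou4f1 stood at 900.0 and 815 counts per 1000000 counts of the plate's neurons (CPM) in the left plates and at 806 and 969 in the right plates. The medians were 17 and 23 counts per neuron in the left and 13 and 21 in the right. Close to the threshold, wells with exactly 1 Pou4f1 count numbered 27 and 6 in the left plates and 23 and 13 in the right plates, against 59 and 14, and 52 and 35, wells with none under the same globin limit. Between 50 and 100 globin counts lay 6 and 1 left neurons and no right neuron, and Pou4f1-positive wells left out with 100 to 200 globin counts numbered 4 and 0 in the left and 3 and 1 in the right.

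The label was checked against habenula markers that the choice of wells did not use. Nwd2, a medial habenula marker, stood at 4454 and 4829 CPM in the left neurons and at 4345 and 4269 CPM in the right neurons, against 278 and 269 CPM and 289 and 156 CPM in the Pou4f1-negative wells of the same plates. Robo3, a guidance receptor of commissural and habenular axons, stood at 593 and 444 CPM in the left and 476 and 766 CPM in the right, against at most 29.8 CPM in the Pou4f1-negative wells. Etv1, Nr4a2, Gng8 and Kctd8 were also higher in the neurons than in the Pou4f1-negative wells on every one of the 4 plates. Tcf7l2, a Wnt effector, was lower, at 1653 and 1434 CPM in the left neurons and 1604 and 1697 CPM in the right. In the negative wells Tcf7l2 stood at 2172 and 1692 CPM and 1787 and 2033 CPM. The sum of 30 listed transcription factors was higher in the neurons except on left plate 2, at 10509 CPM against 10545 CPM. The 12 medial habenula markers summed to 5426 and 5803 CPM in the left neurons and 5294 and 5356 CPM in the right, against 592 and 423 CPM and 699.8 and 548 CPM in the negative wells. The 10 lateral markers did not follow, at 1355 and 1088 CPM in the left neurons and 1494 and 1086 CPM in the right, against 2404 and 1060 CPM and 2207 and 1346 CPM in the negative wells. Calb2, a medial marker, was higher in the negative wells of both right plates, at 257 and 297 CPM against 211 and 243 CPM in the neurons. The sum of the medial markers, most of it Nwd2, thus followed the Pou4f1 gate, and the sum of the lateral markers did not. Single lateral markers went both ways. Gpr151 stood at 91.4 and 93.2 CPM in the left neurons and 56.9 and 37.3 CPM in the right. In the negative wells it stood at 1.19 and 8.55 CPM and 10.3 and 0 CPM. Sst was also higher in the neurons on all 4 plates. Pcdh10 was lower in them on all 4, and Gap43, the highest lateral marker in the neurons, on left plate 1 and both right plates.

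No gene passed the test between the sides. By edgeR's quasi-likelihood test on the summed counts of each plate, 0 of 14518 genes (0%) had an adjusted p under 0.05, and the lowest adjusted p was 0.9997. At an unadjusted p under 0.05 there were 171 genes (1.18%), of which 119 were higher in the left plates and 52 in the right plates. That is less than the share of 0.05 that the threshold itself sets when nothing differs. The test may thus be conservative here, and 0 calls do not show that the sides are alike. DESeq2, an alternative count model, gave 99 genes at an unadjusted p under 0.05 and called 1, the globin Hbb-bt, with an adjusted p of 0.0351 and both left plates above both right plates. With any 1 plate left out, edgeR called 4 to 19 genes: 19 without left 1, 6 without left 2, 4 without right 1 and 8 without right 2. In these fits 1 side has a single plate, which is assumed to vary like the plates of the other side. A difference of that plate cannot be told apart from a difference of its side, so these calls are not read as side differences.

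Plates of opposite sides correlated about as closely as plates of the same side. The median log2 fold change, right minus left, was -0.01 over all genes tested, which the scaling brings near 0 by construction, and the median of its absolute size was 0.17. Both left plates lay above both right plates for 1803 genes (12.4%), and both right plates lay above both left plates for 1962 (13.5%). Across genes, which are not independent replicates, log2 CPM correlated at 0.931 between the 2 left plates and at 0.959 between the 2 right plates. The same correlation between sides ran from 0.933 for left 2 with right 1 to 0.981 for left 1 with right 1. The closest pair of plates was thus one of opposite sides, and left plate 2 was in the 3 pairs of lowest correlation.

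**Figure D1:**
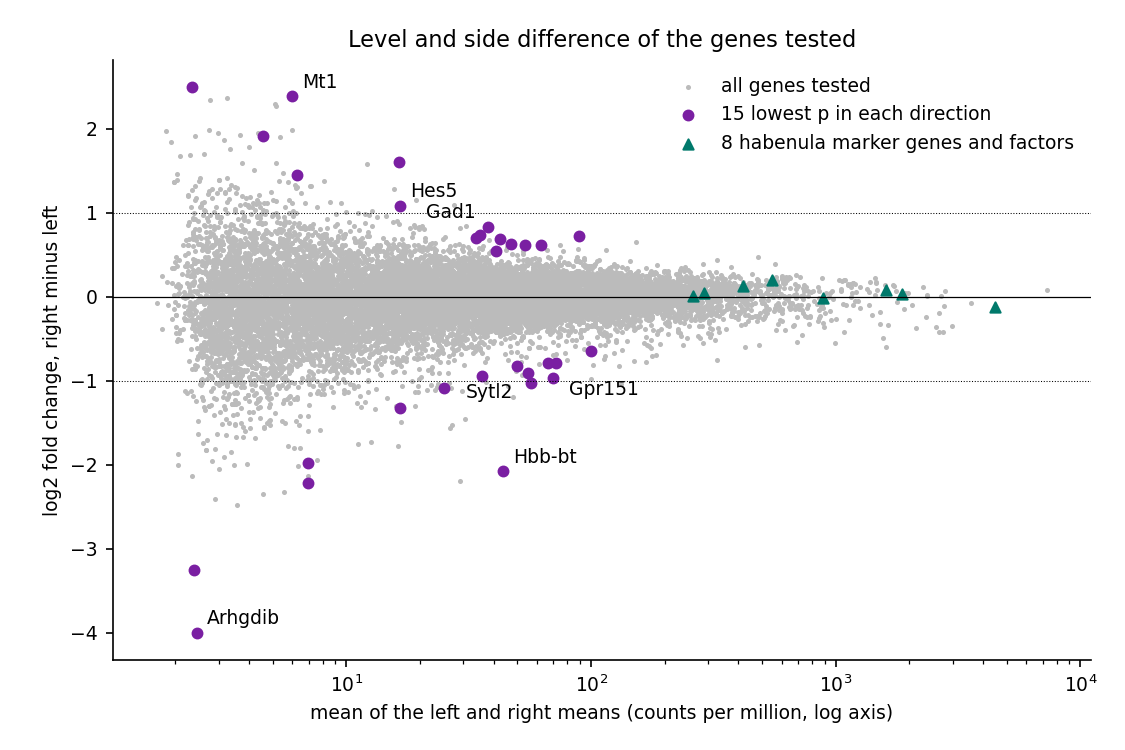
Mean level of each of the 14518 genes tested (x axis, CPM on a log axis) against its log2 fold change, right minus left (y axis), with dotted lines at 1 and -1. Grey points are all genes, purple points the 15 genes of lowest p in each direction and green triangles Zic1, Tcf7l2, Lhx9, Irx2, Nwd2, Nr4a2, Etv1 and Gng8, which lie close to 0 where the scatter is narrow.

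How large a difference the plates could have shown depended on the level of the gene. For genes of 100 to 1000 CPM the 95% interval of the log2 fold change lay within 1 of 0, that is within a 2-fold difference, in 2293 of 2358 genes (97.2%). At 10 to 100 CPM this held for 6040 of 8128 genes (74.3%), and under 10 CPM for 7 of 3963. In the plot of level against difference, 364 genes lay at an absolute log2 fold change of 1 or more. Of these 364, 313 had a mean under 10 CPM and 1 had a mean of at least 100 CPM. That gene was Brinp3, chosen here after its values were seen, at 109.6 and 249 CPM in the left plates and 115 and 57.6 CPM in the right plates, which overlap. For nearly all genes under 10 CPM the interval did not exclude a 2-fold difference at this depth.

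The sum of the 12 medial habenula markers, most of it Nwd2, was higher on both left plates. It stood at 5426 and 5803 CPM there and at 5294 and 5356 CPM in the right. None of the 12 listed, all tested, was called (0 of 12, beside the 0% above), their median log2 fold change was -0.02 against -0.01 over all genes, and for 9 the interval lay within 2-fold. Gng8, a G protein subunit of the medial habenula, stood at 262 and 253 CPM in the left and 234 and 290 CPM in the right, a log2 fold change of 0.00 ± 0.17 (SE). Chrna3, a nicotinic receptor subunit, stood at 120.2 and 136 CPM in the left and 135 and 149 CPM in the right. The values of these 2 genes overlapped between the sides. Nwd2, the most abundant of the list, and Chrnb4, a nicotinic receptor subunit, were higher on both left plates, 2 of 12 against 12.4% of all genes, and none was higher on both right plates. The log2 fold change of Nwd2 was -0.13 ± 0.15 (SE).

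The peptide and cholinergic genes of the medial division varied more between plates of a side than between sides. Tac1, which encodes substance P, stood at 71.7 and 137 CPM in the left and 81.8 and 147 CPM in the right, so that it was higher on the second plate of each side. Tac2, which encodes neurokinin B, stood at 34.1 and 65.7 CPM in the left and 49.3 and 37.7 CPM in the right. Slc5a7, the choline transporter, stood at 54.5 and 49.6 CPM in the left and 51.4 and 51.0 CPM in the right, with an interval of the log2 fold change from -0.48 to 0.39. Chat, which makes acetylcholine, was low at 5.36 to 13.0 CPM on the 4 plates, and its interval from -0.93 to 1.28 did not exclude a 2-fold difference.

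Among the 10 lateral habenula markers, Gpr151 had the lowest p. Gpr151 encodes an orphan receptor found in habenular axons, and it is carried on chromosome 18 (ENSMUSG00000042816). It stood at 91.4 and 93.2 CPM in the left neurons and at 56.9 and 37.3 CPM in the right neurons, and the sides did not overlap. Its log2 fold change was -0.97 ± 0.23 (SE), with an unadjusted p of 0.00202 and an adjusted p of 0.9997 by edgeR's test, so it was not called.

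At full depth, both the share of neurons with Gpr151 and, on average, the counts in them were higher on the left plates. Neurons of each left plate were also deeper, by median, than those of the right plate of the same number. Counts per well with a gene, here and below, were not compared at equal depth. Of the left neurons 36.6% and 36.8% held the gene, and of the right neurons 27.1% and 22.9%. The counts per well with the gene were 5.58 and 9.93 in the left and 4.22 and 4.68 in the right. With every neuron thinned to 2000 counts the shares were 12.2% and 16.7% in the left and 8.76% and 7.45% in the right, a difference with an exact two-sided permutation p of 0.333, the smallest that 2 plates against 2 allow. On the plate of both sides Gpr151 stood at 86.6 CPM, between the means of the right and the left plates. On left plate 2, 1 neuron gave 36.7% of its counts.

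None of the 10 lateral markers was called, and of the 9 others 8 overlapped between the sides, where 12.4% of all genes lay higher on both left plates and 13.5% on both right plates. Gap43, a growth cone protein, stood at 588 and 384 CPM in the left and 743 and 544 CPM in the right. Chrm3, a muscarinic receptor, stood at 159 and 230 CPM in the left and 201 and 188 CPM in the right. Pcdh10, a protocadherin, stood at 149 and 109.3 CPM in the left and 117 and 125 CPM in the right. All 3 overlapped between the sides.

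Sst, which encodes somatostatin, varied most among the lateral markers. It stood at 177 and 68.4 CPM in the left and 168 and 9.77 CPM in the right, and 1 neuron gave 83.2% of the counts of left plate 2. Its interval from -2.37 to 1.41 was too wide to show or to exclude a 2-fold difference.

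**Figure D2:**
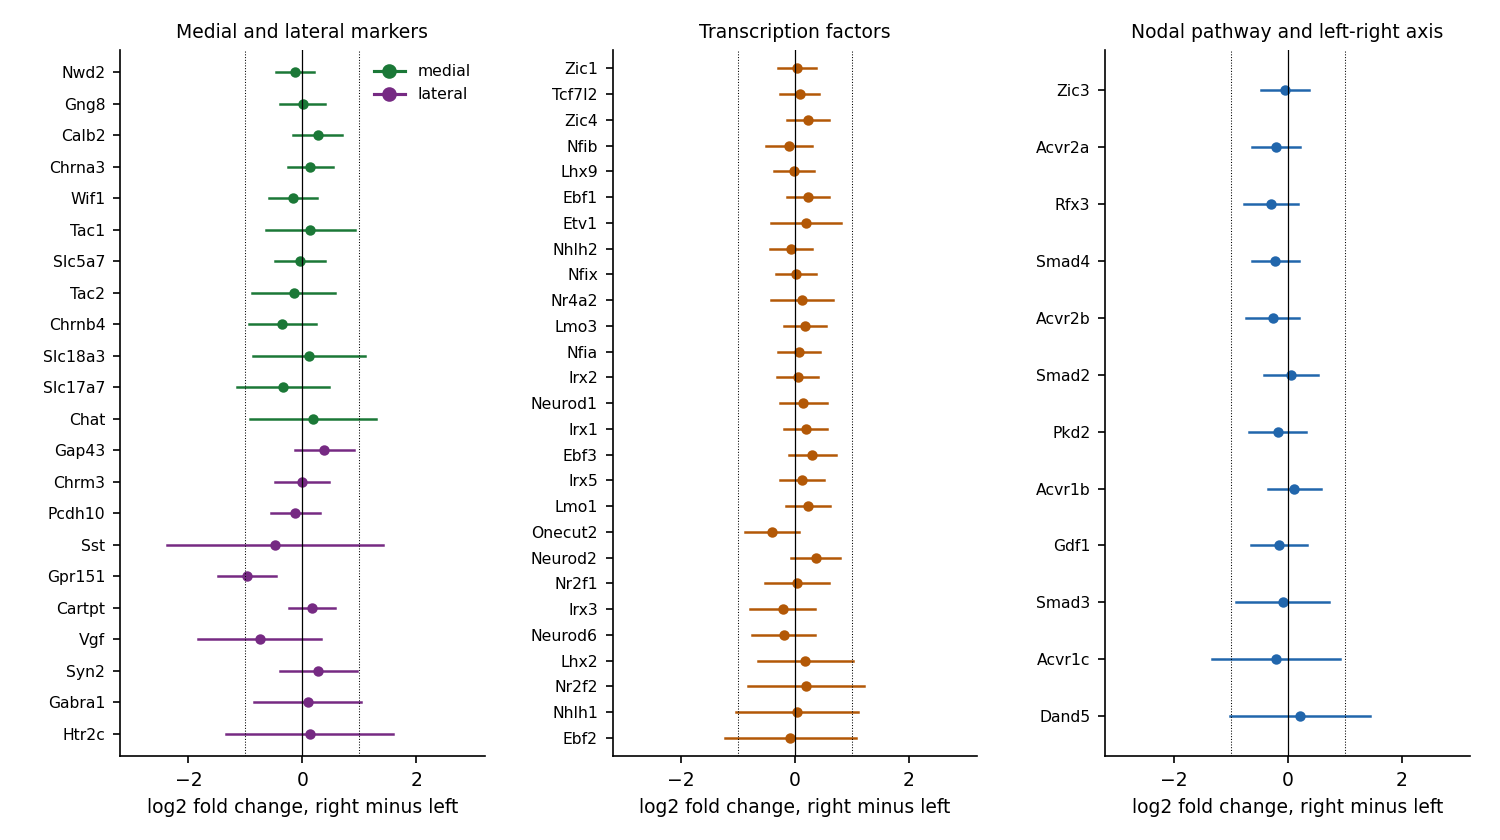
Log2 fold change, right minus left (points, x axis), with its 95% interval (lines) for the tested medial and lateral habenula markers, the transcription factors and the genes of the Nodal pathway and left-right axis, each list ordered by its mean in the left plates. Dotted lines mark -1 and 1; among medial and lateral markers only the interval of Gpr151, from -1.49 to -0.46, leaves out 0.

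No transcription factor of the habenula and diencephalon was called. Of 30 listed, 27 were tested, 0 were called, and the interval lay within 2-fold for 23. Their median log2 fold change was 0.08 and the range was -0.40 to 0.36, with 20 above 0 and 7 below. Both right plates lay above both left plates for 7 of the 27, Irx1, Lmo1, Lmo3, Ebf1, Ebf3, Zic4 and Neurod2, against 13.5% of all genes, and both left plates lay above for 1, Onecut2, against 12.4%. The list summed to 11699 and 10509 CPM in the left and 12064 and 11811 CPM in the right, without overlap. Of all 25 list sums, 6 were higher on both left plates and 3 on both right plates. Pou4f2, Isl1 and Lhx5 were too low to be tested, at no more than 2.53 CPM on any of the 4 plates.

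Zic1, a zinc finger factor of dorsal neural tissue, stood at 1810 and 1859 CPM in the left and 1964 and 1843 CPM in the right. Tcf7l2, a Wnt effector needed for habenula and thalamus identity, stood at 1653 and 1434 CPM in the left and 1604 and 1697 CPM in the right. Lhx9, a LIM homeodomain factor, stood at 927 and 839 CPM in the left and 919 and 848 CPM in the right. The log2 fold changes of these 3 were 0.03 ± 0.15, 0.08 ± 0.15 and -0.02 ± 0.15 (SE).

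Factors tied to subtypes within the habenula differed between plates more than between sides. Etv1, an ETS factor, stood at 680 and 337 CPM in the left and 547 and 634 CPM in the right, and left plate 2 was the lowest. Nr4a2, an orphan nuclear receptor of medial habenula neurons, stood at 499 and 293 CPM in the left and 490 and 385 CPM in the right, again lowest on left plate 2. Irx2, an Iroquois factor, stood at 295 and 269 CPM in the left and 301 and 288 CPM in the right. The largest log2 fold changes on the list were those of Onecut2, at -0.40 ± 0.21, and Neurod2, at 0.36 ± 0.19 (SE), neither of them called.

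Nodal, its Lefty inhibitors and several of its partners were at or near 0 in these neurons. Nodal itself stood at 0.44 and 1.34 CPM in the left and at 0.46 and 0.36 CPM in the right. Lefty1, Gdf3 and Tdgf1 each held counts on left plate 1 alone, at no more than 0.66 CPM, Cfc1 had no count on any of the 4 plates, which allows up to 2.01 CPM on left plate 2, and Lefty2 was at most 1.55 CPM. None of these 6 genes could be tested, and differences among such values were not detectable at this depth.

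Receptors, intracellular parts of the pathway and the ligand Gdf1 were measurable on both sides. Of the 21 listed genes of the Nodal pathway and left-right axis in the table, 12 were tested and 0 were called, with a median log2 fold change of -0.16 and a range of -0.29 to 0.22. Acvr2a, an activin receptor, stood at 159 and 173 CPM in the left and 164 and 128 CPM in the right. Smad4, the shared signal mediator, stood at 73.7 and 81.1 CPM in the left and 67.8 and 66.2 CPM in the right, a log2 fold change of -0.22 ± 0.18 (SE). Gdf1, a partner of Nodal, stood at 46.5 and 44.2 CPM in the left and 45.9 and 36.6 CPM in the right. Of the 12 tested, 1, Smad4, was higher on both left plates, against 12.4% of all genes, and none was higher on both right plates, against 13.5%.

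Of 7 mouse genes whose zebrafish counterparts are expressed unevenly between the habenulae, 6 were tested and 0 were called. Kctd12 encodes an auxiliary subunit of GABA-B receptors, and of its zebrafish counterparts one is found more in the left and another more in the right dorsal habenula. It is located on chromosome 14 from 102976581 to 102982637 on the minus strand (GENCODE M21, mm10). Kctd12 stood at 173 and 152 CPM in the left neurons and at 126 and 85.1 CPM in the right neurons, without overlap. Its log2 fold change was -0.64 ± 0.21 (SE) with an unadjusted p of 0.0151 and an adjusted p of 0.9997 by edgeR's test.

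The share of neurons with Kctd12 at full depth was 59.9% and 57.9% in the left and 57.3% and 50.0% in the right, with 6.43 and 10.3 counts per well in the left and 4.41 and 4.90 in the right. At 2000 counts per neuron the shares were 19.8% and 27.8% in the left and 18.9% and 8.51% in the right, and at 4000 counts they overlapped, at 35.1% and 25.0% in the left and 28.2% and 22.0% in the right. In the Pou4f1-negative wells Kctd12 was highest on right plate 1, at 145 CPM.

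Kctd8, a related subunit whose zebrafish counterpart is found more on the right, stood at 819 and 1099 CPM in the left and at 861 and 838 CPM in the right, which overlap. Adcyap1, which encodes the peptide PACAP, stood at 22.6 and 34.9 CPM in the left and at 17.4 and 13.8 CPM in the right, without overlap, and its log2 fold change was -0.85 ± 0.33 (SE). Nrp1, a semaphorin receptor, stood at 93.2 and 72.4 CPM in the left and 77.0 and 77.1 CPM in the right. The median log2 fold change of the 6 tested genes was -0.16, with 2 of 6 on the right side of 0. Kctd12 and Adcyap1, 2 of the 6, lay higher on both left plates, against 12.4% of all genes. None lay higher on both right plates, against 13.5%. Kctd12 and Adcyap1 were also the 2 of 6 at an unadjusted p under 0.05 by edgeR's test, against 1.18% of all genes.

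Among the genes of lowest p that were higher in the left neurons, the globin Hbb-bt came first. It encodes a beta chain of adult haemoglobin and lies on chromosome 7 from 103812524 to 103813996 on the minus strand. It stood at 100.3 and 40.2 CPM in the left neurons and at 21.0 and 13.0 CPM in the right neurons, and at 2.33 CPM on the plate of both sides. Its log2 fold change was -2.08 ± 0.40 (SE) with an unadjusted p of 0.000536 and an adjusted p of 0.9997 by edgeR's test. DESeq2 called it, with an adjusted p of 0.0351, and so did edgeR with no filter on low counts and in 3 of the 4 fits with a plate left out, but not without left plate 1. Over all alternatives the log2 fold change ran from -3.08 with no globin limit to -1.25 without left plate 1. Hbb-bt is a close copy of Hbb-bs, a gene of the well filter, so its level is bounded by the choice of wells, its test is not independent of that choice, and reads of the 2 genes may not be fully told apart.

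Hbb-bt was spread over many neurons at low counts. It was found in 79.2% and 76.3% of the left neurons and 32.6% and 27.1% of the right neurons, at 2.83 and 2.07 counts per well with the gene in the left and 1.30 and 1.38 in the right. The 3 globins of the well filter followed the same order of plates, at a sum of 786 and 296 CPM in the left and 211 and 127 CPM in the right. In the Pou4f1-negative wells Hbb-bt stood at 198 and 34.2 CPM in the left and 20.7 and 20.4 CPM in the right. Of 9 erythroid genes with a row of counts, 3 were tested, all 3 were negative on the log2 scale, and Slc25a37, a mitochondrial iron carrier, lay higher on both left plates, as 12.4% of all genes did, besides Hbb-bt, which was picked for this. Slc4a1, a membrane protein of red cells, was at most 0.67 CPM. The part of red cells or their free RNA in the other side differences was not tested.

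Sytl2, Grin2a and Pcdh11x were also among the 15 of the left direction. Sytl2, a synaptotagmin-like protein of vesicle traffic, stood at 77.5 and 65.7 CPM in the left and 40.2 and 37.6 CPM in the right, a log2 fold change of -0.90 ± 0.20 (SE). Grin2a, an NMDA receptor subunit, stood at 87.2 and 94.5 CPM in the left and 53.2 and 52.5 CPM in the right, a log2 fold change of -0.79 ± 0.18 (SE). Pcdh11x, an X-linked protocadherin, stood at 85.0 and 83.1 CPM in the left and 54.4 and 43.4 CPM in the right. These 3 genes were picked for not overlapping, and the 2 plates of each side lay closer to each other than to the other side.

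Slit3, a secreted ligand of Robo receptors, stood at 65.3 and 87.1 CPM in the left and 43.4 and 30.4 CPM in the right, but 1 neuron gave 58.1% of its counts on left plate 2. Lpar1, a lysophosphatidic acid receptor, stood at 29.4 and 38.9 CPM in the left and 18.0 and 13.8 CPM in the right. Kcnh5, a potassium channel, stood at 39.9 and 55.0 CPM in the left and 27.0 and 21.7 CPM in the right. Scml4, Lgi2 and Btbd11 had the same order of sides, with log2 fold changes of -1.32, -0.82 and -0.64.

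The other 4 of the 15 were low. Meis2, a homeodomain factor, stood at 12.8 and 9.39 CPM in the left and 3.43 and 2.17 CPM in the right, and 1 neuron gave 58.6% of the counts of left plate 1. Eomes, a T-box factor of intermediate progenitors, stood at 14.8 and 8.04 CPM in the left and 3.43 and 1.45 CPM in the right, and 1 neuron gave 91.7% of the counts of left plate 2. Arhgdib and Irak3 were at no more than 5.98 CPM. Of all 30 genes of lowest p in either direction, 11 had a plate on which 1 neuron gave over 50% of the counts.

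**Figure D3:**
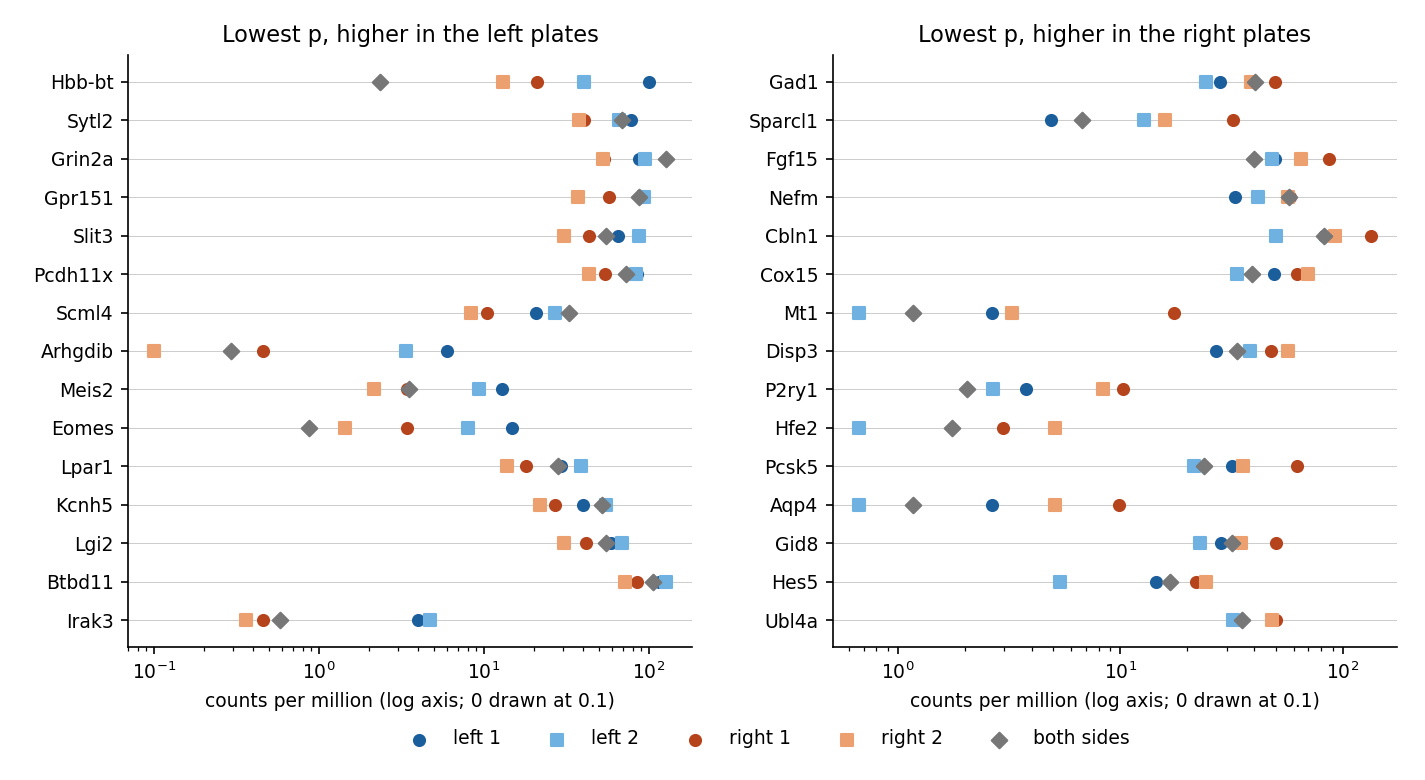
CPM (x axis, log) of the 15 genes of lowest p in each direction, in the neurons of the 2 left plates (blue), the 2 right plates (orange) and the plate of both sides (grey diamonds). The genes were picked from those whose sides do not overlap, and Arhgdib had no count on right plate 2. The plate of both sides lies between the 2 side means for 18 of the 30 genes. The choice of genes widens the gap between these means, and the share over all genes was not taken.

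In the right direction the lowest p belonged to Gad1, which encodes the enzyme that makes GABA and lies on chromosome 2 from 70553072 to 70602014 on the plus strand, overlapped by its antisense gene Gad1os. It stood at 27.9 and 24.1 CPM in the left neurons and at 49.6 and 38.7 CPM in the right neurons. Its log2 fold change was 0.74 ± 0.24 (SE), with an unadjusted p of 0.0135 and an adjusted p of 0.9997 by edgeR's test. With neurons thinned to 2000 counts the share with Gad1 was 1.52% and 0.00% in the left and 6.91% and 7.45% in the right. The sides overlapped at 4000 counts, at 5.15% and 12.5% in the left and 12.2% and 11.0% in the right, and at full depth, at 11.9% and 21.1% in the left and 21.1% and 18.8% in the right. Gad2, the other GABA-making enzyme, stood at 10.9 and 3.35 CPM in the left and 16.9 and 5.79 CPM in the right, and Slc32a1, the GABA transporter of vesicles, was at most 5.48 CPM.

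Of the neurofilament genes, Nefm and Nefl lay higher on both right plates, as 13.5% of all genes did, and Nefm was picked for this. Nefm stood at 32.8 and 41.6 CPM in the left and 58.0 and 56.5 CPM in the right, a log2 fold change of 0.63 ± 0.22 (SE). Nefl, which overlaps Nefm in the annotation, stood at 114 and 69.7 CPM in the left and 139 and 138 CPM in the right, at 0.56 ± 0.22 (SE). Nefh, the heavy subunit, stood at 12.6 and 22.1 CPM in the left and 11.4 and 12.7 CPM in the right, so the 3 subunits did not share a direction. No source used here says whether the authors' counting kept strand, so the values of overlapping genes such as Nefm and Nefl are uncertain.

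Fgf15, Cbln1 and Sparcl1 were also among the 15 of the right direction. Fgf15, a growth factor of the diencephalon, stood at 49.6 and 48.3 CPM in the left and 86.8 and 64.8 CPM in the right. Cbln1, an organiser of synapses, stood at 82.1 and 50.3 CPM in the left and 134 and 91.9 CPM in the right. Sparcl1, a secreted matrix protein, stood at 4.87 and 12.7 CPM in the left and 32.0 and 15.9 CPM in the right. In all 3 the right plates differed from each other by more CPM than the left plates did.

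Hes5, Mt1 and Aqp4, also of lowest p in the right direction, are expressed by radial glia or astrocytes. Hes5, a Notch target, stood at 14.4 and 5.36 CPM in the left and 21.9 and 24.3 CPM in the right. Mt1, a metallothionein, stood at 2.66 and 0.67 CPM in the left and 17.4 and 3.26 CPM in the right, where 1 neuron gave 53.9% of the counts of right plate 1. Aqp4, a water channel of astrocytes, stood at 2.66 and 0.67 CPM in the left and 9.82 and 5.07 CPM in the right, where 1 neuron gave 67.4% of the counts of right plate 1. Without the Pou4f1 condition on the wells the log2 fold change of Aqp4 turned to -0.68, the only turn of direction among the 30 genes. The other 7 genes, Cox15, Disp3, P2ry1, Hfe2, Pcsk5, Gid8 and Ubl4a, had log2 fold changes from 0.55 to 2.49, and Hfe2 was at most 5.07 CPM.

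Axon guidance and adhesion genes, 40 listed and 39 tested, gave 0 calls and a median log2 fold change of -0.09. The interval lay within 2-fold for 29. Robo1, a Slit receptor, stood at 2047 and 2151 CPM in the left and 2027 and 1964 CPM in the right. Nrp2, a semaphorin receptor, stood at 1251 and 1313 CPM in the left and 1342 and 1435 CPM in the right. Dcc, the netrin receptor, stood at 2475 and 3133 CPM in the left and 2769 and 2221 CPM in the right, with left 2 highest and right 2 lowest. Its log2 fold change was 0.28 in spliced counts, 0.05 in unspliced counts and 0.02 without left plate 2. In all counts the log2 fold changes of these 3 were -0.09, 0.10 and -0.19, each with an SE of at most 0.19.

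Transmitter genes and receptors, 32 listed and 30 tested, gave 0 calls and a median of -0.07. Slc17a6, the vesicular glutamate transporter of habenula neurons, stood at 368 and 376 CPM in the left and 425 and 357 CPM in the right. Gria1 and Gria2, AMPA receptor subunits, had log2 fold changes of -0.10 ± 0.16 and 0.00 ± 0.15 (SE). Gabbr1, a GABA-B receptor subunit, stood at 728 and 602 CPM in the left and 686 and 684 CPM in the right. At an unadjusted p under 0.05 by edgeR's test this list held Gad1 and Kctd16 in the right direction (2 of 30) and Kctd12 in the left direction (1 of 30). Of all genes, 1.18% were at that threshold, and Gad1 was picked for its low p. Both left plates lay above both right plates for 7 of the 30, against 12.4% of all genes. Both right plates lay above for 4, against 13.5%.

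Peptide and granule genes, 20 listed and 16 tested, gave 0 calls and a median of -0.02. Pcsk2, a prohormone convertase, stood at 522 and 476 CPM in the left and 493 and 492 CPM in the right. Cpe, which trims peptides, stood at 591 and 420 CPM in the left and 562 and 494 CPM in the right. Of 20 Wnt pathway genes, 16 were tested and 0 were called, with a median of 0.10. Ctnnb1, which encodes beta-catenin, stood at 917 and 694 CPM in the left and 981 and 789 CPM in the right, and Axin2, a Wnt target, at 64.4 and 58.3 CPM in the left and 75.4 and 67.3 CPM in the right. Left plate 2 held the lowest value of Cpe and of both Wnt genes.

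No marker of neuronal maturity was called. Of 18 genes of immature neurons, 18 were tested, 0 were called and 17 had an interval within 2-fold, with a median log2 fold change of 0.04. Tuba1a, a tubulin of growing neurons, stood at 7279 and 6785 CPM in the left and 7254 and 7806 CPM in the right. Of 20 genes of maturing neurons, 20 were tested, 0 were called and 17 had an interval within 2-fold, with a median of 0.06. Both right plates lay above both left plates for 7 of these 20, against 13.5% of all genes, and both left plates above both right plates for 1, against 12.4%. The 2 of 20 at an unadjusted p under 0.05 by edgeR's test, against 1.18% of all genes, were Nefl and Nefm. Nefm was among the genes picked for their low p. Syt1, a synaptic calcium sensor, stood at 830 and 1020 CPM in the left and 827 and 773 CPM in the right, a log2 fold change of -0.23 ± 0.17 (SE), and was the 1 with both left plates higher. Genes of the response to dissociation had a summed level of 3346 and 3802 CPM in the left and 3365 and 3777 CPM in the right, higher on the second plate of each side.

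Genes linked to sex were compared because the sex of the embryos is not given in the labels. Xist, expressed from the inactive X chromosome of females, stood at 224 and 215 CPM in the left neurons and at 262 and 294 CPM in the right neurons. Eif2s3y, on the Y chromosome, stood at 42.5 and 34.9 CPM in the left and 44.3 and 22.1 CPM in the right. Of neurons with only 1 kind of transcript, those with Y-linked transcripts and no Xist made up 53.3% and 61.5% in the left and 57.1% and 38.8% in the right. Every plate therefore held neurons of both kinds, and right plate 2 had the lowest share with Y-linked transcripts. Neurons with both Xist and Y-linked transcripts numbered 39 and 6 in the left and 40 and 8 in the right.

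Markers of other cell types were summed over the same neurons. The 14 radial glia and astrocyte genes summed to 1287 and 714 CPM in the left and 1250 and 1053 CPM in the right. Their log2 fold changes were positive for 11 and negative for 3. Hes5 and Mt1 were at an unadjusted p under 0.05 by edgeR's test (2 of 14, against 1.18% of all genes), and both were picked for their low p. The 10 microglia genes summed to 101 and 37.5 CPM in the left and 32.2 and 35.5 CPM in the right. Of these genes, Tyrobp and C1qc had counts on left plate 1 alone, where 1 neuron gave 87.1% of the C1qc counts. The 12 cycling genes summed to 108 and 35.5 CPM in the left and 75.4 and 193 CPM in the right, and right plate 2 was the highest.

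Erythroid genes summed to 898 and 350 CPM in the left and 242 and 149 CPM in the right. The 3 globins of the well rule made up 786 and 296 CPM of this in the left and 211 and 127 CPM in the right, so the sum is a description and was not tested. GABA neuron markers summed to 256 and 237 CPM in the left and 287 and 264 CPM in the right, most of it Otx2 at 199 to 217 CPM. Slc32a1, the GABA transporter of vesicles, and Gata2, a factor on this list, were at most 9.52 CPM. Pinealocyte genes summed to at most 12.8 CPM. The part of these markers in the gene differences above was not tested.

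**Figure D4:**
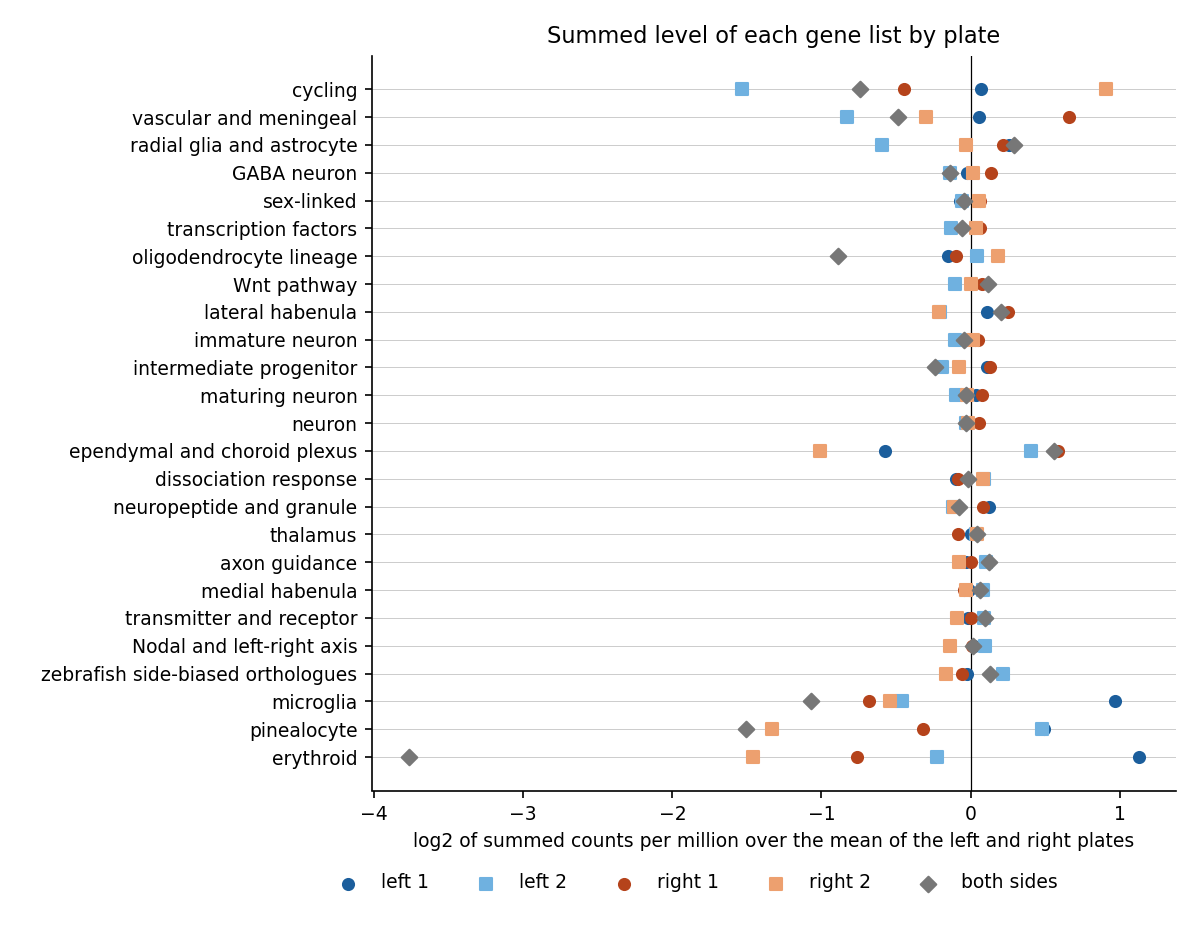
Log2 of the summed CPM of each of 25 gene lists on a plate over the mean of the 4 left and right plates (x axis), for the 2 left plates (blue), the 2 right plates (orange) and the plate of both sides (grey diamonds). Neuronal lists cluster near 0, and erythroid (mostly the globins of the well rule), pinealocyte, microglia, cycling and ependymal sums spread widest; both left plates lie above both right plates for 6 lists and below them for 3.

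The number of neurons that held a marker was compared at equal depth, after each neuron was thinned to 2000 counts. This left out 5 and 2 left neurons and 1 and 2 right neurons that were shallower. Zic1 was found in 95.4% and 97.2% of the left and 94.0% and 95.7% of the right neurons. Nwd2 was found in 83.8% and 88.9% of the left and 84.8% and 85.1% of the right neurons. Kctd8 was found in 61.9% and 52.8% of the left and 64.5% and 63.8% of the right neurons. Kctd8 was lowest on left plate 2, and the other 2 genes differed little between plates.

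Rarer markers varied more between plates. Tac1 was found in 9.64% and 16.7% of the left and 13.4% and 17.0% of the right neurons. Tac2 was found in 4.57% and 5.56% of the left and 10.1% and 10.6% of the right neurons, but at 4000 counts in 9.28% and 12.5% of the left and 11.7% and 11.0% of the right neurons, which overlap. Sst was found in 10.7% and 8.33% of the left and 7.83% and 2.13% of the right neurons, but at 4000 counts in 17.5% and 3.12% of the left and 9.86% and 5.49% of the right neurons, which overlap. With 2 plates a side the exact two-sided permutation test cannot go below a p of 0.333, so no share of neurons could pass a threshold of 0.05.

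**Figure D5:**
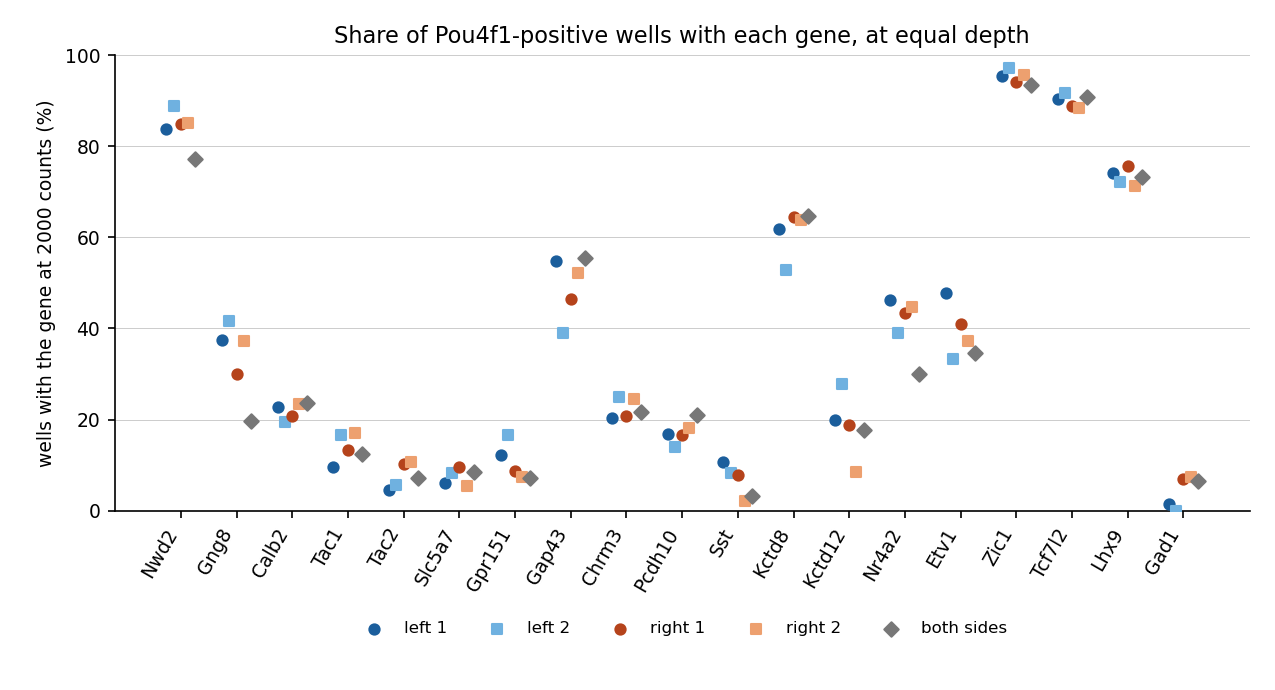
Share of neurons with at least 1 count of a gene after thinning to 2000 counts (y axis, %), for 19 genes in the 2 left plates (blue), the 2 right plates (orange) and the plate of both sides (grey diamonds). Zic1, Tcf7l2 and Nwd2 are found in most neurons of every plate, and Gad1 in at most 7.45% of any left or right plate; the gaps between sides for Gad1, Tac2 and Sst at this depth are not there at 4000 counts.

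Whether a side difference was particular to the Pou4f1-positive wells was tested against the 160 Pou4f1-negative wells under the same globin limit, which numbered 59 and 14 on the left plates and 52 and 35 on the right plates. In edgeR's quasi-likelihood test of the interaction, with the plate as a block, 0 of 12798 genes (0%) were called and 90 had an unadjusted p under 0.05. For Gpr151 the log2 fold change in the neurons minus that in the negative wells was -1.78 ± 1.23 (SE), with an unadjusted p of 0.180 and an adjusted p of 1.00. For Hbb-bt it was 0.32 ± 0.58 (SE), with a log2 fold change of -2.60 ± 0.72 (SE) in the negative wells alone. For Gad1 it was 0.12 ± 0.65 (SE). Of the 30 genes of lowest p, 27 had this test, and 5 were at an unadjusted p under 0.05, each with an adjusted p of 1.00. The 30 genes were picked for a side difference in the neurons, which is 1 part of the interaction. The choice itself therefore raises this count, and it is not a result about these genes. Aqp4 had the lowest, with a difference of 5.25 ± 0.88 (SE) and an unadjusted p of 0.000132. In the negative wells it stood at 109 and 17.1 CPM in the left and 9.04 and 5.58 CPM in the right, the opposite order to the neurons. With left plate 2 left out the difference of Aqp4 was 5.39 ± 0.91 (SE). In the neurons Aqp4 had 1 count on left plate 2, and 1 neuron gave 67.4% of its counts on right plate 1. P2ry1, Pcsk5, Lgi2 and Meis2 had differences of 4.39, 1.15, -2.44 and -2.50. Left plate 2, with 14 negative wells, had the fewest.

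The share of kept wells that were neurons by the rule was 71.4% and 70.4% on the left plates and 78.1% and 72.2% on the right plates. The mean was 4.28 percentage points higher in the right, and the difference ran from 1.31 points without right plate 1 to 7.26 points without right plate 2. Pou4f1 and the globin limit define this share, so it is a description with no test, and with no globin limit the difference was 3.38 points. Kept wells at or above the limit numbered 22 and 2 on the left plates and 9 and 2 on the right plates. The plate of both sides, prepared from C57BL/6 mice and labelled E18, had 154 neurons of 333 kept wells, or 46.2%. It was thus below all 4 plates of single sides.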

How the data were processed

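Per the labels' protocols, plates were made with Cel-seq2, and the submitters' processing notes name Trim Galore, STAR 2.5.3a and mm10. The authors deposited expected counts, that is UMI counts corrected for collisions: 100% of the values inverted to a whole number, to within 1e-06, with 4096 possible UMIs, and 43.8% were whole as deposited. A test of whole counts had been planned, so sums per plate were rounded to whole numbers. Spike-ins and mitochondrial genes were left out. Of 36067 gene rows, 36027 were in GENCODE M21, whose 1-based coordinates are given.

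Plate sums of 1492285 to 4517335 counts were tested with edgeR 4.0.16 (filterByExpr, TMM, glmQLFit and glmQLFTest) in R 4.3.3, with Benjamini-Hochberg adjustment over all genes tested and calls at an adjusted p under 0.05. Intervals are 95% and come from this fit. The 4 genes that chose the wells were not tested. The steps were tested on simulated data. Alternatives, 22 planned and 1 added after seeing the data, covered DESeq2 1.42.0, scaling, filters, well rules, spliced and unspliced tables and left-out plates. Doublets were not called; wells above 3 times their plate's median were left out in one alternative.

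Named genes are, per direction, the 15 of lowest p whose plates do not overlap between sides (no gene was called; Gm, Rik and pseudogene rows passed over), the 4 members of highest mean of each of 25 lists, and a fixed set of habenula, asymmetry and sex genes; further list members are named beside their list's count. The members and lists were chosen with earlier results of these data known.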

Additional observations from a re-analysis of the deposited data

How the results depend on the processing

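The count of 0 called genes stayed 0 in 16 of 23 alternatives. These include the other scalings, the stricter low-count filter, recovered UMIs, every change of well rule, spliced and unspliced tables and protein-coding rows. They also include equal depth per neuron, where the lowest adjusted p by edgeR's test was 0.0533 over 6750 genes, close to the threshold. With no filter on low counts the count of calls was 22 (20 higher in left), among them Srgn, C1qc and Penk. Most counts of these genes lay on left plate 1, where 1 neuron gave 87.1% of those of C1qc and 97.6% of those of Penk. The count of calls was 1 with the replicate block (Hbb-bt, adjusted p 0.000357) and 1 with DESeq2. It ran from 4 to 19 with 1 plate left out: 19 without left plate 1 (6 higher in right, 13 in left), 6 without left plate 2, 4 without right plate 1 and 8 without right plate 2, where the lone plate is assumed to vary like the other side. Hbb-bt was called in 3 of these 4 fits, not without left plate 1, and Srgn in 3. The replicate numbers are shared by the sides, but the labels state no pairing, and with 2 pairs the deviations of left 1 and right 1 correlated at 0.209. The interaction gave 2 calls without left plate 2 and 1 without right plate 1, a range of 0 to 2 over plates left out, and 0 otherwise. Of the 30 genes of lowest p, 29 kept their direction in every alternative that tested them. They were picked for plates that do not overlap between sides, so leaving out 1 plate could hardly turn them. Most alternatives also share their wells with the main fit, so the choice largely sets this count. No direction is claimed for genes that were not called. The right minus left share of neurons ran from 1.31 to 7.26 points with 1 plate left out. Left plate 2, with 38 neurons and the highest unspliced share of the 4 plates, limits the precision of all results.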

Other observations

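Some genes on the plate of both sides lay outside the range of the 4 plates of single sides. Fos, an immediate early gene, stood at 2.66 and 5.36 CPM in the left neurons, at 0.69 and 1.45 CPM in the right neurons and at 49.0 CPM on the plate of both sides, where 1 neuron gave 39.5% of the counts. Egr1 stood at 16.4 and 9.38 CPM in the left, 9.82 and 7.24 CPM in the right and 52.8 CPM on the plate of both sides. Jun stood at 68.0 and 76.4 CPM in the left, 66.5 and 64.1 CPM in the right and 62.1 CPM on that plate. Ubb, a ubiquitin gene, stood at 1247 to 1547 CPM on the 4 plates and at 166 CPM on the plate of both sides. Tsix, the antisense partner of Xist, stood at 64.4 to 89.4 CPM on the 4 plates and at 7.88 CPM on that plate, while Xist stood at 270.4 CPM there, within the range of 215 to 294 CPM. Of 14518 genes tested, the plate of both sides lay within the range of the 4 plates for 6724, under 50% of the lowest of them for 818 and over 2 times the highest for 104. Differences of this plate from the others were not tested. Reads of processed pseudogenes made up 0.789% and 1.48% of counts in the left plates, 0.714% and 1.34% in the right plates and 0.657% where both sides were taken, so that plates of the same number were closer than plates of the same side. Genes named in this section were chosen after their values were seen.

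Fabp7, a lipid carrier of radial glia, stood at 188 and 42.9 CPM in the left neurons and at 198 and 181 CPM in the right neurons, and 1 neuron gave 92.2% of the counts of left plate 2. Srgn, a proteoglycan of blood cells, stood at 61.3 CPM on left plate 1 and at no more than 1.14 CPM on the other 3 plates, with no neuron giving over 3.61% of the counts of left plate 1. Col3a1, a collagen of connective tissue, stood at 26.7 CPM on right plate 1 and at no more than 2.01 CPM on the other 3 plates, and 1 neuron gave 97.4% of those counts. Penk, which encodes enkephalin, stood at 19.0 CPM on left plate 1 and at no more than 0.46 CPM on the other 3 plates, and 1 neuron gave 97.6% of those counts.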
